A study of Mus musculus with 24 samples.

Results

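The data described here are the levels of 6 genes that govern how much glucose a mouse thymocyte takes up and traps: Txnip, Ddit4, the glucose transporter genes Slc2a1 and Slc2a3, and the hexokinase genes Hk1 and Hk2. Every probe set listed for these symbols was taken. Of 45037 probe sets tested on the array, 13 listed exactly 1 of the 6 symbols: 2 for Txnip, 1 for Ddit4, 3 for Slc2a1, 4 for Slc2a3, 2 for Hk1 and 1 for Hk2. A further probe set (1436822_x_at) is listed for Hk1 together with Rpl17-like genes, and was not used. Values are log2 signals, and where a gene has several probe sets the one with the highest mean over all arrays is called its lead probe set.

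Expression was measured on Affymetrix mouse arrays in CD4+ CD8+ thymocytes (DP cells) sorted with anti-CD4 and anti-CD8 from the thymus of male Black 6J mice aged 8 weeks. After sorting, cells had a 2 hour rest in RPMI medium that held 10% FCS, followed by 30 min on plastic carrying anti-CD3, an antibody to the signalling chains of the T cell receptor complex, or on plastic without it. The 4 genotypes were SapKO, ElkKO, the double knockout ElkSapKO, and WT, with 3 mice each. Each mouse gave an anti-CD3 array and an untreated array, so the 24 arrays form 8 groups of 3. The labels name Sap and Elk without a gene symbol and do not describe the alleles. Sap is taken to be Elk4 (SAP-1) and Elk to be Elk1, ETS-domain partners of Srf that MAP kinases activate, and the design asks how far the early response to the receptor depends on them.

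Txnip is an alpha-arrestin that removes glucose transporters from the cell surface and binds thioredoxin, and its transcription is raised by glucose phosphates through MondoA and Mlx. Ddit4 (REDD1) restrains the growth kinase complex mTORC1 through the Tsc1 and Tsc2 proteins and is induced by energy stress, hypoxia and glucocorticoids. Slc2a1 (GLUT1) and Slc2a3 (GLUT3) carry glucose into T cells, and hexokinases phosphorylate it so that it stays inside.

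The promoters of Txnip and Ddit4 are shown because these are the 2 members whose level fell after anti-CD3. Each window holds 300 bases, from 250 before to 50 after the transcription start, as given by RefSeq on GRCm38.p6. Txnip lies at chr3:96557707-96558006 on the + strand, and Ddit4 at chr10:59951721-59952020 on the - strand. Capitals mark motif matches.
Txnip: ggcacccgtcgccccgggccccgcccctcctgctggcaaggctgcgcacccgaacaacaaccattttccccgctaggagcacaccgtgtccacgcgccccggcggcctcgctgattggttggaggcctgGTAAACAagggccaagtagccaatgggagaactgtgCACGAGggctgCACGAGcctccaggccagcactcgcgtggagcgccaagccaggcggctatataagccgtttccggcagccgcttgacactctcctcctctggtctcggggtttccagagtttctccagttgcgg
Ddit4: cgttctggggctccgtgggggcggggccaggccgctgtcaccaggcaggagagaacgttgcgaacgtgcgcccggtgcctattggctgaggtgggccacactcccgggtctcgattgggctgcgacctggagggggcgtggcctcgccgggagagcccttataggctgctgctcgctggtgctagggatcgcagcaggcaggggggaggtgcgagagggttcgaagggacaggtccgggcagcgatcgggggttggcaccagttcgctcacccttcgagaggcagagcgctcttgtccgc
Windows were searched on both strands for CACGTG (E-box), TGTTTAC (FoxO), CCGGAAGT (ETS), TGAGTCA (AP-1), GCGGGGGCG (Egr) and the CArG box of Srf. Over the 32851 promoters of the table these occur in 7.15%, 3.65%, 3.89%, 5.2%, 2.91% and 1.63% of windows, in the order given. The Txnip window held 1 FoxO match, which starts at position -121 from the start site and reads GTAAACA on the printed strand, and no match of the others. It also held CACGAG at -85 and -74, 5 bases apart, in the arrangement of the carbohydrate response element through which MondoA and Mlx are known to act on this gene. This pattern was added after the sequence had been read. Of all 32851 windows, 1 held such a pair (0.00304%), and it is the Txnip window from which the pattern was taken. That share is therefore not a background rate for such elements. CACGAG alone occurred in 6.47%. The Ddit4 window held none of these motifs, nor did those of Slc2a1, Hk1 (2 windows) and Hk2. No window was listed for Slc2a3. A match describes letters and not a bound site, and a missing match says only that these letters are not in this window.

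The libraries were checked before the members were compared. Untreated Elk4 signal was 6.88 to 7.27 log2 in SapKO arrays and 6.13 to 7.85 in ElkSapKO arrays, against 10.35 to 10.69 in WT arrays, whereas Elk1 gave 4.03 to 5.23 on every array, close to background, and checks nothing. Of the 7 DP thymocyte markers measured, means over the arrays lay between 6.50 (Ptcra) and 12.78 (Cd8b1), and 1 (Rag1) was called in the response. The log2 of summed signals of other cell types' markers ranged over the arrays from 6.52 to 7.48 for 5 erythroid genes, 7.54 to 8.61 for 4 B cell genes, 7.32 to 8.16 for 6 macrophage and dendritic genes, 6.37 to 7.67 for 5 granulocyte genes and 8.90 to 9.70 for 6 epithelial and stromal genes, and none of these genes was called. Background is taken from Xist, which male cells do not express and which read 4.07 to 5.07. RNA quality differed between genotypes. On the Actb control probe sets the 3′ signal exceeded the 5′ signal by 0.17 to 0.24 log2 in SapKO, 0.38 to 0.65 in ElkKO and 0.55 to 1.05 in ElkSapKO arrays, against 0.15 to 0.36 in WT arrays. In bulk RNA, fewer cells of a type and less RNA per cell cannot be told apart.

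Txnip fell within 30 min of anti-CD3. On its lead probe set (1415996_at) SapKO cells read 10.21, 10.54 and 10.32 log2 after anti-CD3 in mice 1, 2 and 3, against 11.45, 11.63 and 11.48 untreated. ElkKO cells read 10.55, 10.67 and 9.88 after anti-CD3, against 11.62, 11.26 and 11.00 untreated. Anti-CD3 arrays lay below untreated arrays without overlap in both of these genotypes, and so they did in the other two. ElkSapKO cells read 10.22, 10.15 and 10.15 after anti-CD3, against 11.09, 11.14 and 11.43 untreated. WT cells read 9.59, 10.13 and 9.58 after anti-CD3, against 10.58, 11.20 and 10.98 untreated. The level was lower after anti-CD3 in each of the 12 mice, from a change of -0.59 log2 in ElkKO mouse 2 to -1.40 in WT mouse 3.

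Averaged over the genotypes, Txnip changed by -1.07 ± 0.10 log2 (SE; 2.10-fold lower; limma adjusted p = 6.73e-07). Across the array 196 probe sets fell in that comparison (0.435% of those tested), and 2 of them had a larger fall than this one. By genotype the change was -1.17 in SapKO (adjusted p = 0.00771), -0.92 in ElkKO (0.1), -1.05 in ElkSapKO (0.0233) and -1.15 in WT (0.0102), each with an SE of 0.20. The ElkKO change passed the threshold of 0.05 with mouse as a replicate block (adjusted p = 0.00839). The call in SapKO was lost without untreated mouse 2 (0.0647) or anti-CD3 mouse 1 (0.0738) or 3 (0.0559) of that genotype. In ElkSapKO it was lost without untreated mouse 3 (0.0622) or anti-CD3 mouse 1 (0.0845), 2 (0.111) or 3 (0.0842). In WT it was lost without untreated mouse 2 (0.104) or 3 (0.0686) or anti-CD3 mouse 1 (0.0663) or 3 (0.0714), while the averaged call held in all 24 fits that each left out 1 array.

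The second Txnip probe set (1415997_at) moved the same way and was noisier. Its values were 8.26 to 9.91 over the 12 anti-CD3 arrays and 8.96 to 10.99 over the 12 untreated arrays, and it was lower after anti-CD3 in each of the 12 mice. The averaged change was -1.04 ± 0.18 log2 (SE; 2.06-fold lower; limma adjusted p = 0.00159). Within genotypes it was -1.21 in SapKO (adjusted p = 0.483), -0.83 in ElkKO (1), -0.86 in ElkSapKO (0.676) and -1.28 in WT (0.305), so none passed. With mouse as a replicate block the SapKO (adjusted p = 0.00763) and WT (0.00551) changes did. The correlation between the 2 probe sets over the 24 arrays was 0.844, and 0.776 after group means were removed.

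Untreated groups held the highest Txnip signals. On the lead probe set the group means stood in the order 11.52 ± 0.10 (untreated SapKO), 11.29 ± 0.32 (untreated ElkKO), 11.22 ± 0.18 (untreated ElkSapKO), 10.92 ± 0.32 (untreated WT), 10.37 ± 0.42 (anti-CD3 ElkKO), 10.35 ± 0.17 (anti-CD3 SapKO), 10.17 ± 0.04 (anti-CD3 ElkSapKO) and 9.77 ± 0.31 (anti-CD3 WT), each as mean ± SD with n = 3. Each neighbouring pair in this order had overlapping ranges except the last, anti-CD3 ElkSapKO above anti-CD3 WT. On the second probe set the lowest group was anti-CD3 ElkSapKO (8.80 ± 0.42), just under anti-CD3 WT (8.94 ± 0.66), so the probe sets disagree on that pair.

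**Figure D1:**
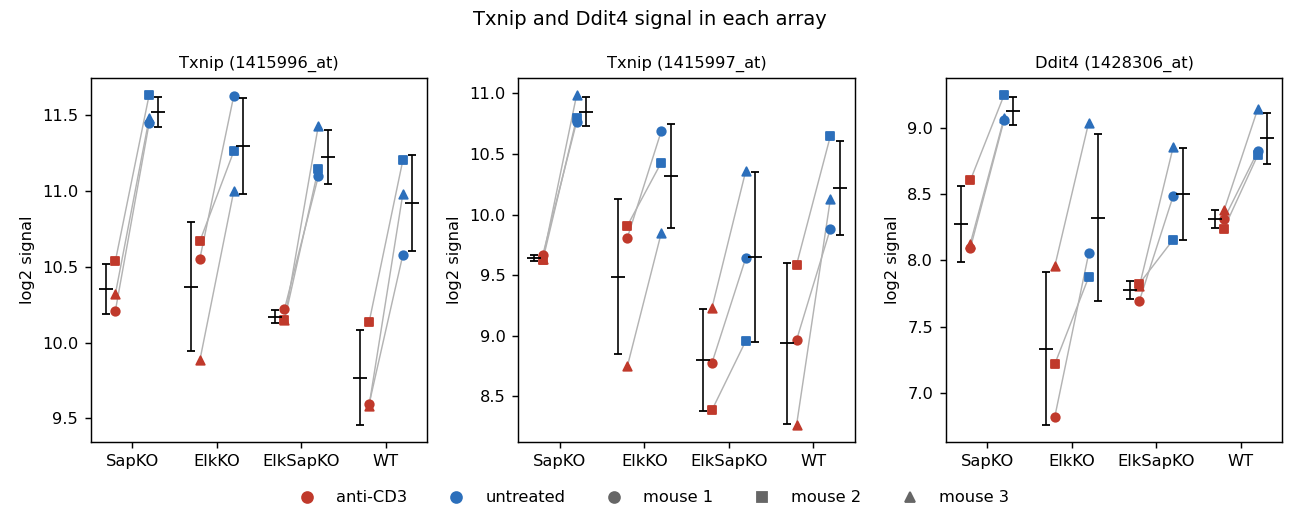
Log2 signal (y axis) of the Txnip and Ddit4 probe sets by genotype (x axis), anti-CD3 in red left of untreated in blue; symbols are mice 1 to 3, grey lines join the arrays of a mouse, and black bars give mean ± SD (n = 3). All 12 lines of each panel slope the same way, with the anti-CD3 end lower.

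Ddit4, the mTORC1 inhibitor, also fell. SapKO cells read 8.09, 8.60 and 8.13 log2 after anti-CD3, against 9.06, 9.25 and 9.08 untreated. ElkKO cells read 6.82, 7.22 and 7.96 after anti-CD3, against 8.05, 7.87 and 9.04 untreated. The ElkKO groups overlapped because mouse 3 was high in both states, but each of its mice was lower after anti-CD3. ElkSapKO cells read 7.70, 7.82 and 7.81 after anti-CD3, against 8.49, 8.16 and 8.86 untreated. WT cells read 8.31, 8.24 and 8.38 after anti-CD3, against 8.82, 8.80 and 9.15 untreated. Outside ElkKO the anti-CD3 and untreated arrays did not overlap, and all 12 mice were lower after anti-CD3.

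The averaged change of Ddit4 was -0.80 ± 0.13 log2 (SE; 1.74-fold lower; limma adjusted p = 0.00115), and 20 of the 196 probe sets that fell had a larger fall. It was -0.86 in SapKO (adjusted p = 0.618), -0.99 in ElkKO (0.454), -0.73 in ElkSapKO (0.635) and -0.61 in WT (0.95), and none of these passed. With mouse as a replicate block the SapKO (0.0241) and ElkKO (0.0137) changes passed. The group means stood in the order 9.13 ± 0.11 (untreated SapKO), 8.92 ± 0.19 (untreated WT), 8.50 ± 0.35 (untreated ElkSapKO), 8.32 ± 0.63 (untreated ElkKO), 8.31 ± 0.07 (anti-CD3 WT), 8.27 ± 0.29 (anti-CD3 SapKO), 7.78 ± 0.07 (anti-CD3 ElkSapKO) and 7.33 ± 0.58 (anti-CD3 ElkKO; SD, n = 3 each). Only anti-CD3 SapKO and anti-CD3 ElkSapKO, among neighbours in this order, had ranges that did not overlap. Txnip and Ddit4 were correlated at 0.446 over the 24 arrays on their lead probe sets, but at -0.364 once group means were removed.

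Both transporter genes were above background on their lead probe sets and neither passed the test for a response. Slc2a3, on 1437052_s_at, read 8.06, 8.02 and 7.80 log2 in SapKO cells after anti-CD3, against 7.78, 7.60 and 7.59 untreated. The SapKO arrays did not overlap between states, whereas those of the other 3 genotypes did. Its averaged change was 0.30 ± 0.12 (SE; 95% interval 0.05 to 0.54; limma adjusted p = 0.46), higher in 9 of 12 mice. The second Slc2a3 probe set (1455898_x_at) changed by 0.14 ± 0.10 (adjusted p = 0.89). The other two, 1421924_at and 1427770_a_at, had means of 4.58 and 4.14, within the range of Xist, and changes of -0.13 and -0.17. By genotype and state the lead probe set averaged 7.96 ± 0.14 in anti-CD3 SapKO, 7.82 ± 0.27 in anti-CD3 WT, 7.65 ± 0.11 in untreated SapKO, 7.46 ± 0.20 in untreated WT, 7.34 ± 0.33 in anti-CD3 ElkKO, 7.30 ± 0.26 in untreated ElkKO, 7.03 ± 0.52 in anti-CD3 ElkSapKO and 6.56 ± 0.45 in untreated ElkSapKO (SD, n = 3 each). Neighbours in that order all overlapped.

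Slc2a1 was measured by 3 probe sets that did not move as one. The averaged change was 0.20 ± 0.11 log2 on the lead probe set (1434773_a_at; adjusted p = 0.766), 0.06 ± 0.06 on 1426599_a_at (0.987) and 0.20 ± 0.09 on 1426600_at (0.606). The lead probe set was correlated with 1426600_at at -0.252 over the 24 arrays, against 0.604 between 1426599_a_at and 1426600_at. On the lead probe set the largest change in a mouse, 1.43 log2, came from ElkSapKO mouse 2, which read 8.19 after anti-CD3, against 6.76 untreated. Group means of the lead probe set lay between 7.31 ± 0.04 (untreated ElkKO) and 7.86 ± 0.45 (anti-CD3 ElkSapKO), in the order anti-CD3 ElkSapKO, SapKO and WT, untreated SapKO, anti-CD3 ElkKO, then untreated ElkSapKO, WT and ElkKO, with overlap at each step. The untreated array of ElkSapKO mouse 2 had the widest spread of relative signals of all 24 (interquartile range 0.782 log2). When arrays were weighted by their quality, Slc2a1 on 1426600_at (0.31, adjusted p = 0.00644) and Slc2a3 on its lead probe set (0.37, adjusted p = 0.016) passed. In that fit 2443 probe sets were called in the averaged response, against 654 without weights.

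The hexokinase genes did not pass the test for a response either. Hk1, the housekeeping hexokinase, changed by -0.07 ± 0.11 log2 on the lead probe set (1437974_a_at; limma adjusted p = 1) and by -0.08 ± 0.14 on 1420901_a_at (1). Hk2, the hexokinase that growth signals induce in many tissues, read between 3.90 and 4.89 on all 24 arrays, close to the Xist range, so its level was not resolved here. Its averaged change was 0.04 ± 0.10, and its group means lay between 4.20 ± 0.28 (untreated WT) and 4.59 ± 0.21 (anti-CD3 ElkKO), each overlapping the next. Hk1 group means on the lead probe set were 8.75 ± 0.08 in anti-CD3 WT, 8.75 ± 0.17 in anti-CD3 SapKO, 8.74 ± 0.16 in untreated SapKO, 8.66 ± 0.14 in untreated WT, 8.45 ± 0.11 in untreated ElkKO, 8.45 ± 0.57 in untreated ElkSapKO, 8.36 ± 0.22 in anti-CD3 ElkKO and 8.16 ± 0.45 in anti-CD3 ElkSapKO (SD, n = 3 each), again with overlap at each step. Together the 95% intervals of the 10 transporter and hexokinase probe sets spanned -0.43 to 0.54 log2.

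**Figure D2:**
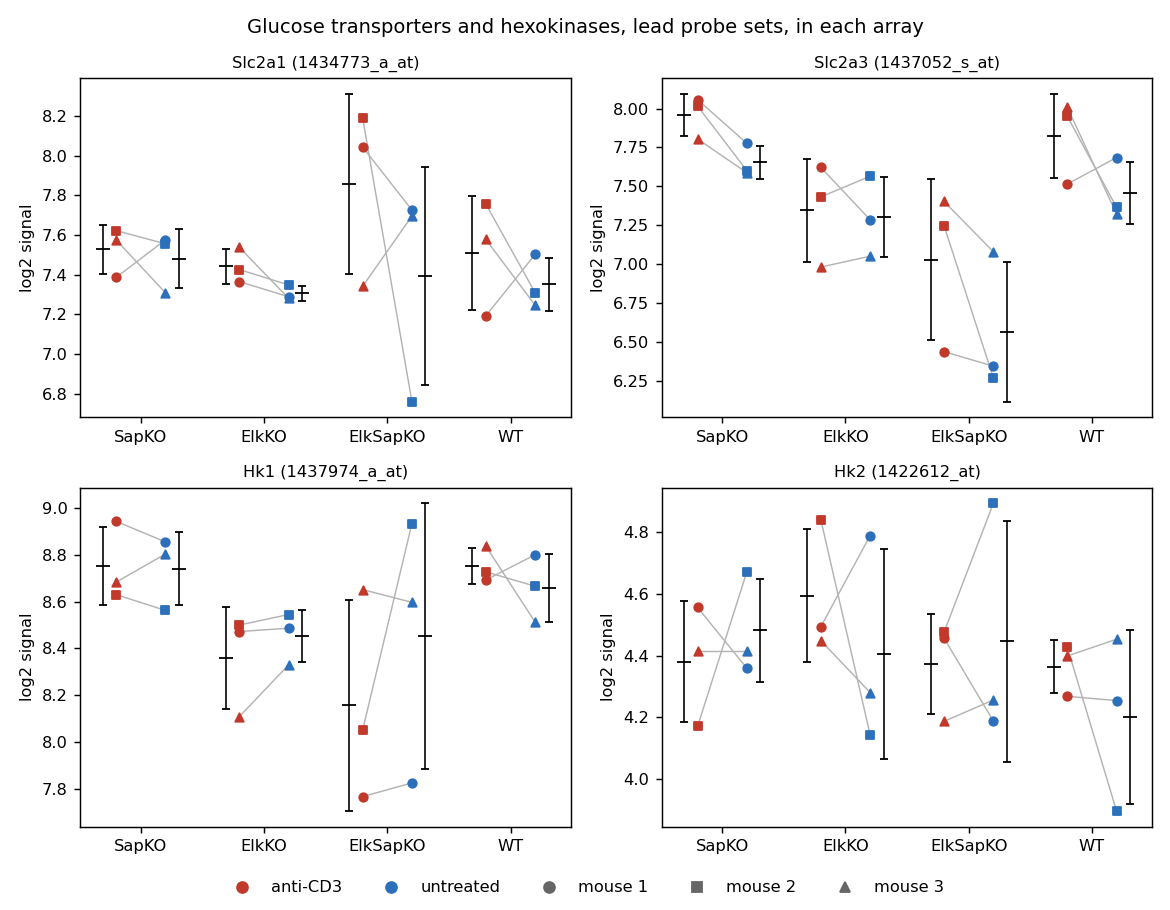
Log2 signal (y axis) of the lead probe sets of Slc2a1, Slc2a3, Hk1 and Hk2 by genotype (x axis), anti-CD3 in red left of untreated in blue; symbols are mice, grey lines join the arrays of a mouse, and bars give mean ± SD (n = 3). Lines run in both directions in each panel, and ElkSapKO arrays are widely spread.

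In all, 3 of the 13 probe sets were called in the averaged response, against 1.45% of all probe sets (0.435% lower). These 3 are both Txnip probe sets and Ddit4. The members were chosen with earlier results of these data known, so setting their counts against shares of all probe sets tests nothing. The median change was -0.07 over the 13, against 0.003 over all. Within genotypes the count was 1 in SapKO (background 0.255%), 0 in ElkKO (0.151%), 1 in ElkSapKO (0.258%) and 1 in WT (0.251%). An unadjusted limma p under 0.05 was found for 4 of the 13 in SapKO (2.47% of all probe sets), 3 in ElkKO (2.68%), 4 in ElkSapKO (7.32%) and 3 in WT (4.93%). With mouse as a replicate block the counts called were 3 in SapKO (0.4% of all probe sets in that fit), 2 in ElkKO (0.238%), 1 in ElkSapKO (0.402%) and 2 in WT (0.413%). No difference in response between a knockout and WT passed the test: 0 of 13 were called in SapKO (0.00222% of all probe sets), ElkKO (0%) or ElkSapKO (0.00222%), and none had an unadjusted p under 0.05. For Txnip on the lead probe set these differences were -0.01 (95% interval -0.61 to 0.59) in SapKO, 0.23 (-0.38 to 0.83) in ElkKO and 0.10 (-0.50 to 0.70) in ElkSapKO. For Ddit4 they were -0.24 (-1.03 to 0.54), -0.38 (-1.16 to 0.41) and -0.11 (-0.90 to 0.67) in the same order of knockouts. A lost response would be a difference of the size of the WT response with the opposite sign. For Ddit4 (-0.61 in WT) only the ElkSapKO interval reaches that size on the positive side, and those of SapKO and ElkKO end below it. On the negative side all 3 intervals of Ddit4 hold a fall greater than in WT by that size. On the Txnip lead probe set the intervals end short of the size of its response in WT on both sides. On the second Txnip probe set the differences were 0.07 (-0.98 to 1.13), 0.45 (-0.61 to 1.51) and 0.43 (-0.63 to 1.48), and in ElkKO and ElkSapKO those intervals hold differences as large as its response in WT (-1.28). All 3 comparisons share the WT arrays. The intervals come from the fit of group means, which does not use the pairing of arrays by mouse. Both Txnip probe sets and Ddit4 were lower after anti-CD3 in each of the 12 mice.

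**Figure D3:**
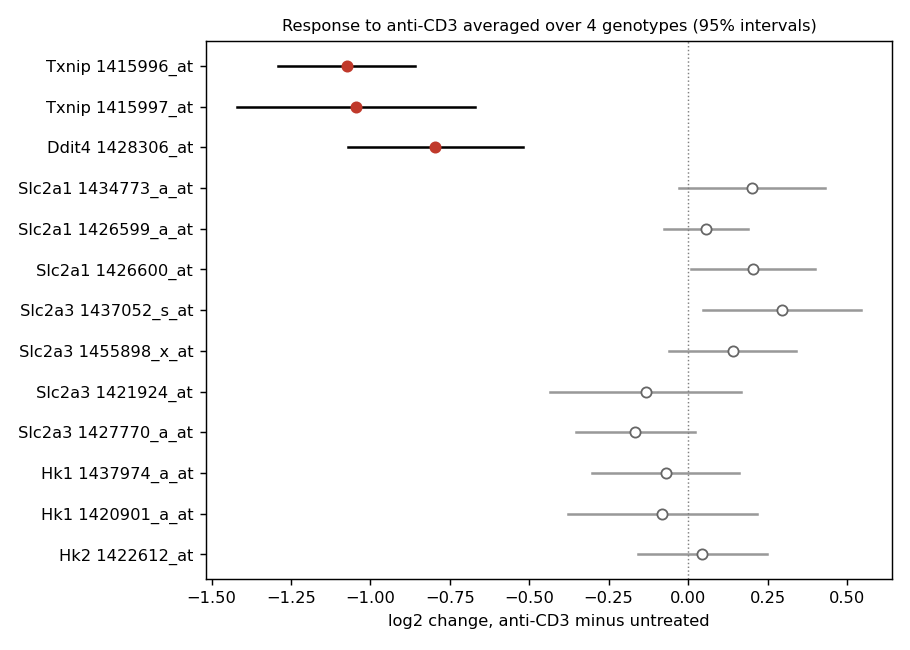
Log2 change, anti-CD3 minus untreated, averaged over the 4 genotypes (x axis) for each of the 13 probe sets (y axis), with 95% intervals; filled red points passed an adjusted p of 0.05. The 2 Txnip probe sets and Ddit4 lie at -1.07, -1.04 and -0.80, and the 10 others lie between -0.17 and 0.30.

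Between genotypes, calls among the members were made only in ElkSapKO. Of the 13 probe sets, 0 were called in SapKO against WT after anti-CD3 (background 0.0755%) or untreated (0.0888%), with 1 and 2 at an unadjusted limma p under 0.05 (3.37% and 1.73% of all probe sets). In ElkKO 0 were called after anti-CD3 (0.144%) or untreated (0.0933%), with 5 and 3 at an unadjusted p under 0.05 (12.6% and 8.6% of all probe sets). In ElkSapKO 2 were called lower after anti-CD3 and 2 untreated, where 6.36% and 5.34% of all probe sets were called and 4.28% and 4.16% were called lower. An unadjusted p under 0.05 was found there for 6 and 5 (21.8% and 23.4% of all probe sets). Slc2a1 was not called, and its probe sets disagreed in sign in ElkSapKO after anti-CD3. They differed from WT by 0.35 (lead, adjusted p = 0.383), -0.12 (1426599_a_at, 0.666) and -0.58 (1426600_at, 0.0677). The 3 knockouts are set against the same WT arrays.

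Slc2a3 was lower in ElkSapKO than in WT cells. On its lead probe set the untreated arrays read 6.34, 6.27 and 7.08 log2 in ElkSapKO, against 7.68, 7.36 and 7.32 in WT. The anti-CD3 arrays read 6.44, 7.25 and 7.40 in ElkSapKO, against 7.51, 7.95 and 8.01 in WT. All 3 ElkSapKO arrays were below all 3 WT arrays in each state, mouse 3 by the least untreated. The difference was -0.80 ± 0.24 after anti-CD3 (limma adjusted p = 0.0507) and -0.89 ± 0.24 untreated (0.0335). On 1421924_at, close to background, it was -0.82 (0.0958) and -0.94 (0.0615) in the same order. On 1427770_a_at, also close to background, it was -0.32 (0.319) and -0.28 (0.349). On 1455898_x_at it was -0.67 ± 0.19 after anti-CD3 (0.0413) and -0.69 ± 0.19 untreated (0.0414). The untreated call on the lead probe set was lost without any of the 3 untreated WT arrays (0.168, 0.074 and 0.0568 for mice 1, 2 and 3) or untreated ElkSapKO mouse 1 (0.0984) or 2 (0.0917). On 1455898_x_at the calls held in 14 of 24 such fits after anti-CD3 and in 15 of 24 untreated. After anti-CD3 the call was lost without ElkSapKO mouse 1 (0.242) or 2 (0.109) or WT mouse 1 (0.0587), 2 (0.148) or 3 (0.0877) of that state, and narrowly (0.0506 to 0.0514) without untreated mouse 3 of WT or SapKO or anti-CD3 mouse 1 or 2 of SapKO or 2 of ElkKO. Untreated it was lost without ElkSapKO mouse 1 (0.15) or WT mouse 1 (0.171), 2 (0.077) or 3 (0.0902) of that state, and narrowly (0.05 to 0.052) without untreated mouse 1 or 3 or anti-CD3 mouse 1 or 2 of SapKO or anti-CD3 mouse 2 of ElkKO. ElkKO cells were also below WT on each Slc2a3 probe set in both states, without a call. On the lead probe set they differed by -0.48 after anti-CD3 (0.42) and -0.16 untreated (0.968). On 1455898_x_at the ElkKO differences were -0.41 (0.38) and -0.20 (0.907), and on 1421924_at -0.36 (0.659) and -0.92 (0.262).

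Hk1 was lower in ElkSapKO cells on 1420901_a_at after anti-CD3. The arrays read 6.88, 6.92 and 8.08 log2 in ElkSapKO, against 8.56, 8.51 and 8.28 in WT, with mouse 3 of ElkSapKO well above the other two and just under the lowest WT array. The difference was -1.16 ± 0.29 (SE; 2.23-fold lower; limma adjusted p = 0.0218). Untreated, ElkSapKO cells read 6.87, 8.01 and 8.16, against 8.43, 8.43 and 8.14 in WT, a difference of -0.65 ± 0.29 (adjusted p = 0.176) with overlapping arrays. The Hk1 lead probe set differed by -0.60 ± 0.22 after anti-CD3 (0.115) and -0.21 ± 0.22 untreated (0.574). The anti-CD3 call was lost without WT mouse 1 (0.077) or 2 (0.0667) or ElkSapKO mouse 1 (0.134) or 2 (0.105) of that state. ElkKO cells were below WT on both Hk1 probe sets too, without a call. On 1420901_a_at they differed by -0.45 after anti-CD3 (0.547) and -0.31 untreated (0.893). On the lead probe set the ElkKO differences were -0.39 (0.496) and -0.21 (0.929).

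The Actb 3′ minus 5′ signal given above did not overlap between ElkSapKO and WT arrays, nor between ElkKO and WT arrays. RNA quality and genotype therefore cannot be told apart in the Slc2a3 and Hk1 differences. A fit with that signal as a covariate cannot tell them apart either, because the covariate itself separates the genotypes. With the Actb 3′ minus 5′ signal as a covariate, an alternative chosen after seeing the data, none of the calls held: the adjusted p was 0.742 for Hk1 (change -0.52), and for Slc2a3 0.617 on 1455898_x_at after anti-CD3 (-0.52), 0.697 on the same probe set untreated (-0.55) and 0.697 on the lead probe set untreated (-0.67). When only the arrays compared entered the fit the differences had the same size and the adjusted p was 0.112, 0.16, 0.457 and 0.404, so none was called. The dap spike-in, a bacterial RNA added in the laboratory, read 9.11 to 9.78 log2 in ElkSapKO, against 5.92 to 6.63 in WT mice 1 and 2 and 9.06 to 9.31 in WT mouse 3. For Slc2a3 on the lead probe set WT mouse 3 read 8.01 after anti-CD3 and 7.32 untreated. The highest ElkSapKO arrays read 7.40 and 7.08 in the same order. For Hk1 on 1420901_a_at WT mouse 3 read 8.28 after anti-CD3 and 8.14 untreated, against 8.08 and 8.16 in the highest ElkSapKO arrays. A comparison with 1 mouse cannot tell the spike-in level from genotype. Marker sums differed as well. The DP markers summed to 14.24 to 14.52 log2 in ElkSapKO, against 14.55 to 14.70 in WT after anti-CD3, and to 14.49 to 14.72 in ElkSapKO, against 14.80 to 14.92 in WT untreated. The epithelial and stromal markers summed to 8.90 to 9.35 in ElkSapKO, against 9.34 to 9.59 in WT after anti-CD3, and to 8.98 to 9.27 in ElkSapKO, against 9.39 to 9.70 in WT untreated. Among them Pecam1 had the highest mean (8.86) and Col1a1 the lowest (3.53), so that sum rests largely on Pecam1. The part of the spike-in and of these markers in the Slc2a3 and Hk1 differences was not tested. With the Actb covariate the averaged changes were -1.06 and -1.01 for the Txnip probe sets (adjusted p = 6.58e-07 and 6.88e-05) and -0.81 for Ddit4 (0.000994). Those changes compare states within genotypes, so they do not bear on the differences between genotypes.

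**Figure D4:**
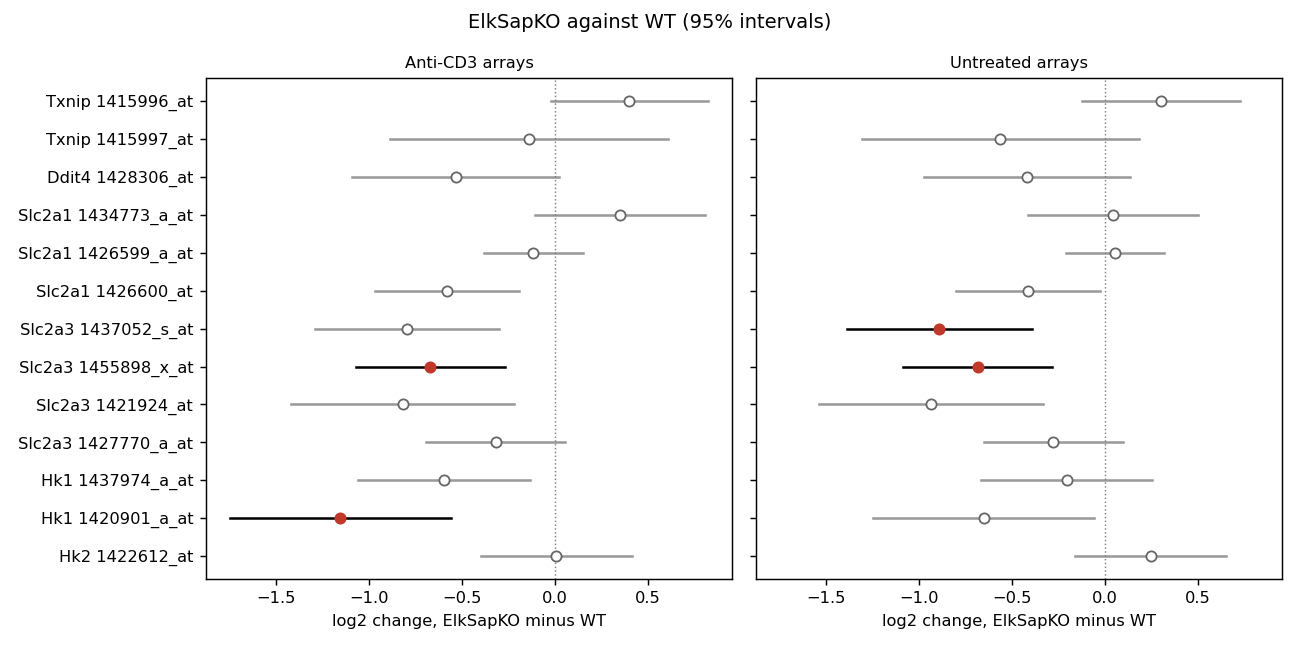
Log2 difference, ElkSapKO minus WT (x axis), of each of the 13 probe sets (y axis) in anti-CD3 arrays (left) and untreated arrays (right), with 95% intervals; filled red points passed an adjusted p of 0.05. The 4 filled points are Slc2a3 and Hk1 probe sets between -1.16 and -0.67, and Hk2 lies close to 0 after anti-CD3.

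Levels of Txnip and Ddit4 between genotypes are given as values, since no difference passed. On the lead probe set Txnip differed from WT by 0.58 ± 0.20 log2 after anti-CD3 and 0.60 ± 0.20 untreated in SapKO (limma adjusted p = 1 in both). All 3 SapKO arrays were above all 3 WT arrays in each state, but the share of all probe sets separated in this way was not counted. Txnip differed on the same probe set by 0.60 after anti-CD3 (0.226) and 0.37 untreated (0.673) in ElkKO. In ElkSapKO the differences were 0.40 (0.26) and 0.30 (0.369), but on the second Txnip probe set they were -0.14 (0.875) and -0.57 (0.339), so the probe sets disagree in sign. The summed B cell markers stood at 8.15 to 8.37 log2 in SapKO, against 7.82 to 8.06 in WT after anti-CD3, and at 8.31 to 8.45 in SapKO, against 7.95 to 8.14 in WT untreated. Cd79b had the highest mean of these markers (7.62) and weighs most in their sum. The part of the B cell markers in the Txnip difference was not tested. Ddit4 stood apart in the other direction in ElkKO cells, by -0.98 ± 0.27 after anti-CD3 (0.131) and by -0.60 ± 0.27 untreated (0.52). The ElkKO anti-CD3 arrays did not overlap with WT. In ElkSapKO cells Ddit4 was lower as well, by -0.53 after anti-CD3 (0.25), also without overlap, and by -0.42 untreated (0.337). SapKO cells differed by -0.04 and 0.21 in the same order. With arrays weighted by quality both ElkKO differences of Ddit4 passed (-1.20, adjusted p = 0.0172 and -0.82, adjusted p = 0.0255). The share of all probe sets called in that weighted fit was not counted. The Actb 3′ minus 5′ signal was 0.38 to 0.65 in ElkKO, against 0.15 to 0.36 in WT arrays, without overlap. RNA quality and genotype therefore cannot be told apart in the Ddit4 differences. The dap spike-in read 8.83 to 9.73 in ElkKO arrays, and its part was not tested.

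Other genes of the pathway were taken from 9 lists, which hold 96 genes, 89 of them measured by a probe set of their own. In the averaged response 3 rose and 4 fell, with 1.02% and 0.412% of all genes doing so by lead probe set. No glycolytic enzyme passed: 0 of 13 measured, 0 of them at an unadjusted limma p under 0.05 (7.73% of all probe sets), with a median change of 0.01 and a range of -0.11 to 0.12, against a median of 0.01 over all genes. Ldha, which makes lactate, changed by 0.01 and the glycolytic kinase Pgk1 by -0.02. The 12 other glucose transporter and hexokinase genes gave 0 calls and 0 at an unadjusted p under 0.05, with a median of -0.01. The thioredoxin system, which Txnip inhibits, also gave 0 of 5 and 0 unadjusted, with a median of 0.08.

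Among 5 alpha-arrestin relatives of Txnip, 1 fell and none rose. Arrdc3, which directs membrane proteins to ubiquitin ligases, changed by -0.99 ± 0.22 log2 (SE; limma adjusted p = 0.0165), and by -1.38 in SapKO (0.618), -0.92 in ElkKO (1), -0.36 in ElkSapKO (0.809) and -1.28 in WT (0.607), with an SE of 0.43 in each. Arrdc4, the closest relative of Txnip, had a mean of 3.86 and a change of 0.002, and Arrdc2 changed by -0.29 (adjusted p = 0.658). None of the 3 windows listed for the Arrdc3 promoter held a motif searched. The Arrdc4 window held 1 E-box match at -193 and 1 CArG match at -210. The list of Ddit4l, sestrins and mTORC1 parts gave 0 of 14 (2 at an unadjusted p under 0.05) with a median of -0.02. Rheb, the small GTPase that activates mTORC1, changed by 0.32 (adjusted p = 0.054), and Sesn1, an inhibitor of the pathway, by -0.22 (0.204). Akt and AMPK kinases gave 0 of 10 (1 unadjusted).

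Glucose-sensing and Myc network factors gave 1 rise in 10 genes and a median of 0.10. That gene was Mlx, the partner of MondoA, at 0.40 ± 0.08 log2 (limma adjusted p = 0.00552), while Myc changed by 0.28 (0.267) and Hif1a by 0.13 (0.985). Of 12 genes of the FoxO list, 3 fell and 1 rose, with a median of -0.14. Ccr7, a chemokine receptor, changed by -0.95 ± 0.12 (5.61e-05), Pik3ip1, an inhibitor of PI 3-kinase, by -0.59 ± 0.09 (0.000649) and the factor Foxo3 by -0.27 ± 0.07 (0.0458). Bcl2l11, which encodes the death protein Bim, changed by 0.61 ± 0.11 (0.00313). Of 8 glucocorticoid-induced genes only Per1, a clock gene, was called, at 1.76 ± 0.13 (2.18e-08). Tsc22d3 (GILZ), a standard target of that hormone, changed by -0.16 (0.889).

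**Figure D5:**
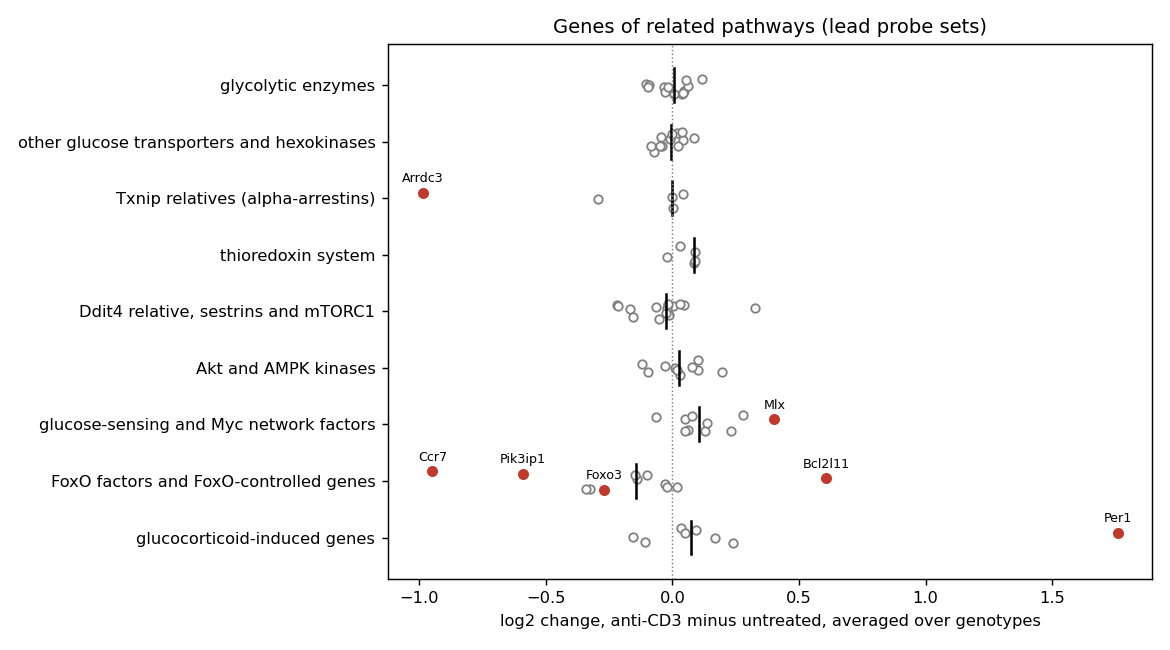
Log2 change, anti-CD3 minus untreated, averaged over genotypes (x axis) for each measured gene of the 9 lists (y axis); bars mark list medians and filled red points passed an adjusted p of 0.05. The named genes are the 7 that passed, from Arrdc3 at -0.99 to Per1 at 1.76, while the glycolytic and transporter genes lie between -0.11 and 0.12.

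In ElkSapKO against WT the same lists gave 1 higher and 10 lower of 89 genes after anti-CD3, where 1.36% of all genes were higher and 5.14% lower by lead probe set. Untreated they gave 0 higher and 11 lower, where 0.984% and 3.3% of all genes were. Among glycolytic enzymes, 3 of 13 were lower after anti-CD3 (median change of the 13, -0.29, against -0.0049 over all genes): the phosphofructokinase Pfkl (-0.95, limma adjusted p = 0.0225), the aldolase Aldoa (-0.45, 0.02) and the enolase Eno3 (-0.83, 0.0277). Untreated, Aldoa (-0.44, 0.0252) and Pfkp (-0.48, 0.0427) were lower. These enzymes were named after their values were seen. Lower calls were not particular to glycolysis. The FoxO list gave 4 of 12 lower untreated (median -0.70), and 1 lower and 1 higher after anti-CD3 (-0.32). Akt and AMPK kinases gave 2 of 10 lower in each state, and glucocorticoid-induced genes 2 of 8 after anti-CD3 and 1 untreated. The other transporter and hexokinase, alpha-arrestin and thioredoxin lists gave 0 calls in either state. The part of RNA quality in any of these lists was not tested.

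The genes whose pattern was most like that of a member were found by Pearson correlation between lead probe sets over the 24 arrays, among 8116 named genes with a mean of at least 6. The values describe arrays that share groups, mice and RNA quality, and carry no test. For Txnip they were Zkscan14 (0.847), Rag1 (0.843), Smyd1 (0.756), Slfn2 (0.747) and Atg12 (0.720). After group means were removed, Zkscan14 kept 0.569 and Rag1 stood at -0.121, so the likeness of Rag1 lay between groups. For Ddit4 they were Ctsl (0.842), Fgfr1op2 (0.838), U2af1l4 (0.835), Socs3 (0.834) and Cldn4 (0.826), and Ctsl stood at 0.842 within groups as well. Slc2a3 was most like Lmtk2 (0.906), Rnf40 (0.901) and Tmem39a (0.893), and Hk1 most like Fam98c (0.952), Txlna (0.946) and Vegfb (0.945). For Slc2a1 the values were 0.832 (Rps25), 0.828 (Paip2) and 0.825 (Mospd1). Hk2, near background, had the lowest: 0.679 (Arhgef40), 0.673 (Ptpn1) and 0.634 (Nes), among 8117 genes.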

How the data were processed

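The authors deposited log2 signals of 45101 probe sets in 24 arrays, made by RMA with the affy package per the submitters' processing notes; package versions are not stated there. RMA quantile normalizes arrays, so changes are relative to all probe sets. The 64 control probe sets were left out. Gene symbols came from the platform annotation. The members and lists were chosen with earlier results of these data known.

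With limma 3.58.1 in R 4.3.3 a mean was fitted for each of the 8 groups (16 residual degrees of freedom), and p-values were adjusted by Benjamini-Hochberg over 45037 probe sets, called at 0.05. Promoters were scanned and figures drawn in Python 3.11.15 with matplotlib 3.10.9. All member probe sets are named, with up to 4 called genes of each pathway list (smallest adjusted p in the averaged response) and the 3 or 5 genes most like each member; other named list genes were chosen after their values were seen. The labels give the mouse of each array, so both arrays of a mouse are paired: deviations from group means correlated at -0.0348 to 0.851 over 8361 genes, above 0.1 in 10 of 12 pairs. Alternatives were mouse as a replicate block, array weights, median centring, a mean signal of at least 5, lead probe sets only, only the arrays compared, each array left out, and an Actb covariate. The number of arrays limits the precision. The share of all probe sets without overlap between groups was not counted, so no statement of non-overlap has a background beside it. The fit was tested on simulated data.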

Additional observations from a re-analysis of the deposited data

How the results depend on the processing

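No called value changed sign under any alternative or with any array left out, and the averaged calls of Txnip (both probe sets) and Ddit4 held in each alternative that was run on them. With only the arrays compared in the fit, Txnip on the lead probe set was not called in ElkSapKO (adjusted p = 0.359) or WT (0.174), nor was Slc2a3 in ElkSapKO on the lead probe set untreated (0.404) or on 1455898_x_at untreated (0.457) or after anti-CD3 (0.16), nor Hk1 (0.112). The numbers of member probe sets called were then 3 in the SapKO response (2 lead probe sets), 0 in the ElkSapKO and WT responses, 1 in untreated ElkKO against WT and 0 in ElkSapKO against WT in each state. With the Actb covariate the ElkSapKO values were 0.697, 0.697, 0.617 and 0.742, and the counts 0 in both states. With array weights the counts were 5 in the averaged response, 3, 2 and 3 in SapKO, ElkKO and ElkSapKO, 1 and 2 in ElkKO against WT after anti-CD3 and untreated, and 6 and 6 in ElkSapKO; 6 listed pathway genes then rose. Weighted counts by lead probe set were 2 in the SapKO and 2 in the ElkKO response, 1 in ElkKO against WT in each state and 2 in ElkSapKO against WT in each state. The share of all probe sets called with array weights was counted only for the averaged response, so the other weighted counts have no background beside them. Untreated ElkSapKO mice 1, 2 and 3 had weights of 4.23, 0.0777 and 0.317, so mouse 1 dominates that group. Mouse as a replicate block gave 3, 2 and 2 member probe sets in the SapKO, ElkKO and WT responses (2 and 2 lead probe sets in SapKO and ElkKO) and changed no other call of a member where it could be fitted, that is, not between genotypes. A mean of at least 5, median centring and lead probe sets only gave 1 lead probe set in ElkSapKO after anti-CD3 (Slc2a3, 0.0343, 0.0496 and 0.0451), and the first and second gave 4 probe sets there. Across all probe sets the averaged response held 654 calls, against 2443 with array weights, 1082 with the block and 1216 without untreated ElkSapKO mouse 2, which an alternative chosen after seeing the data left out. Leaving out each array in turn, the adjusted p of Txnip ranged from 0.00215 to 0.0738 in SapKO, 0.00829 to 0.111 in ElkSapKO and 0.00266 to 0.104 in WT, and in ElkSapKO against WT from 0.00327 to 0.168 for Slc2a3 on the lead probe set untreated, 0.00912 to 0.171 on 1455898_x_at untreated, 0.00766 to 0.242 on it after anti-CD3 and 0.00154 to 0.134 for Hk1. The number of member probe sets called ranged from 0 to 1 in each of those 3 responses, 0 to 6 in ElkSapKO against WT after anti-CD3 (6 without untreated ElkSapKO mouse 2) and 0 to 3 untreated, and of lead probe sets from 0 to 1, except 0 to 2 in ElkSapKO after anti-CD3.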
